A study of Glycine max with 20 samples.

Results

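The stretch of soybean chromosome 13 described here runs from gene model Glyma13g32010.1 to Glyma13g36400.1, taken in order of the locus number, the digits that follow Glyma13g in the name and rise along the chromosome. It has 434 gene models, of which 322 had at least 10 reads in 2 or more of the 20 libraries and are the members. The whole count table holds 66210 models, of which 40243 pass the same read minimum. The member rule uses position and read number, but the end points of the stretch were chosen from earlier results of the comparison between the lines on these same counts. Differences between the lines inside it are therefore given as a description, and the number of calls is not evidence that the stretch differs from the rest of the genome. Chromosome and order were read from the names alone.

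The data are RNA sequencing of leaves from a pair of near-isogenic soybean (Glycine max) lines. One is labelled rag2 and susceptible to aphids, the other Rag2 and resistant. Each line was sampled with no aphids (0 h) and at 4, 8, 24 and 48 h of infestation, with 2 biological replicates for each of the 10 combinations of line and time. No uninfested libraries at the later times were used here, so time of day and time with aphids cannot be told apart. The count table names the lines W and BC, and nothing at hand ties these codes to rag2 or Rag2. Values are given for W and BC, and differences as BC minus W, with no direction relative to resistance. Nothing says whether the replicates came from separate plants, so the p-values set a difference against the spread between these libraries, which may be partly technical.

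Rag2 is a resistance locus on chromosome 13 that limits colonies of the soybean aphid, an insect that feeds on phloem sap. Near-isogenic lines are made by repeated crossing to a recurrent parent while selecting for the wanted locus, and the selected plants keep a piece of donor chromosome on either side of it. Genes on such a piece can differ between the lines in sequence, in copy number or in expression, whereas genes beyond it are expected to be alike. A read count depends both on how much transcript there is and on how well reads match the reference sequence, and these cannot be told apart here. The sources at hand pair no function with these models, so none is given, and the leaf label could not be set against marker genes.

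Of the 322 members, 312 passed the low-count filter of the model and were tested, and 246 had at least 10 reads in all 20 libraries. Libraries held 7558768 to 38227436 reads in gene models, of which 0.744% to 1.01% fell in the members. Replicate 2 of the BC 0 h group stood apart from the other libraries. Its mean correlation with them over the tested members was 0.847, against 0.876 to 0.928 for the others, and 76 members, or 23.6%, had their highest level there. Over all tested models that share was 21.9%. For the calls between the lines and the named changes from 0 h, it is stated where a call was lost without this library. The main counts of members called against 0 h include this library, and not all of the calls in them held without it.

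Averaged over the 5 times, 11 of the 312 tested members were called between the lines, 6 higher and 5 lower in BC. A call here is a Benjamini-Hochberg adjusted p below 0.05 over all 38918 tested models in edgeR. Over all tested models 0.213% were called, 0.136% higher and 0.0771% lower in BC. Since the end points were drawn on this comparison, nothing is read from the excess or from calls that lie next to an end. The 7 calls from Glyma13g32380.1 to Glyma13g33160.1 lie close together, with at most 15 tested members between neighbouring calls. Beyond them 119 tested members in a row were not called, up to Glyma13g34900.1, and 62 more lie between that model and Glyma13g35770.1. The last pair, Glyma13g36360.1 and Glyma13g36370.1, follows 39 further uncalled members and lies next to the end of the stretch.

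**Figure D1:**
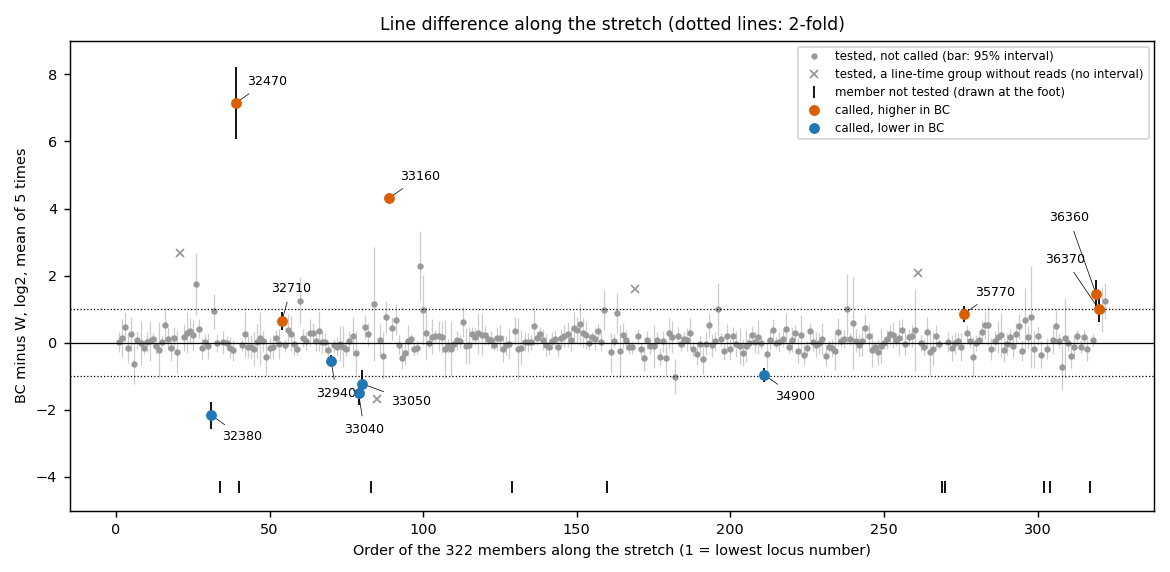
Averaged log2 difference between the lines (vertical axis, BC minus W) for the members in order of locus number (horizontal axis). Coloured points are the 11 called members with the last 5 digits of their names, grey points are uncalled members, bars are 95% intervals, crosses are members with a line-time group without reads, and ticks at the foot are the 10 members not tested. Calls lie mostly in the first part and at the far end, and most grey bars lie between the dotted 2-fold lines. The end points were drawn on this comparison, so calls next to an end are not read as a pattern. The heights of the crosses and of Glyma13g33160.1, which has no interval, depend on the settings of the fit.

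The largest difference was in Glyma13g32470.1. In BC its replicates 1 and 2 stood at 29.1 and 14 (0 h), 3.91 and 21.4 (4 h), 6.31 and 2.002 (8 h), 10.8 and 17.1 (24 h) and finally 18.1 and 18.3 (48 h), all in CPM. The 10 W libraries lay between 0 and 0.517 CPM with a median of 0.0792 CPM. All BC libraries were above all W libraries, and the lowest BC value was that of replicate 2 at 8 h. The model had 2292 reads in BC and 16 in W, a ratio of 160 per scaled library size with an exact 95% counting interval of 98.5 to 281, which covers counting error only. The fitted log2 difference was 7.14 with a standard error of 0.50. This model reached 10 reads only in BC libraries, so it could enter the members only by being high there.

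Glyma13g32380.1, 8 members before it in order, went the other way. Its log2 difference was the second largest among called members that had reads in each line-time group. Replicates 1 and 2 of W stood at 137 and 72.7 (0 h), 194 and 159 (4 h), 153 and 172 (8 h), 131 and 84.3 (24 h) and finally 209 and 126 (48 h), all in CPM. Those of BC stood at 28.4 and 47 (0 h), 22.4 and 43.3 (4 h), 22.9 and 15.7 (8 h), 21.5 and 32.8 (24 h) and finally 51.3 and 43.6 (48 h), all in CPM. The ranges of the lines did not overlap, and W was higher at each time. The averaged log2 difference was -2.16 (standard error 0.19, 95% interval -2.56 to -1.75), which is 4.46-fold lower in BC. It was smallest at 0 h and largest at 8 h, from -1.48 to -3.08, with standard errors of 0.42 and 0.44. The 6 tested members between this model and Glyma13g32470.1 were not called, and 5 of them had a 95% interval within 2-fold. The sixth was Glyma13g32390.1, the next model along, with BC at 2.65 ± 1.396 CPM and W at 1.302 ± 0.495 CPM (SD, n = 10), which differed by 0.94 in log2 with a standard error of 0.24.

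Glyma13g32710.1 and Glyma13g32940.1 differed by less than 2-fold with small spread. In replicates 1 and 2 of W, Glyma13g32940.1 stood at 34.3 and 39.4 (0 h), 40.8 and 41.2 (4 h), 35.7 and 44.2 (8 h), 37.5 and 36.98 (24 h) and finally 39.96 and 36.3 (48 h), all in CPM. In BC the pairs were 26.96 and 25.1 (0 h), 28.6 and 23.9 (4 h), 25.9 and 26.9 (8 h), 26.8 and 25.2 (24 h) and finally 29.1 and 28.7 (48 h), all in CPM. All BC values lay below all W values, and the log2 difference was -0.53 with a standard error of 0.07, the smallest standard error of the 11. Lowest, median and highest levels of Glyma13g32710.1 were 4.37, 5.402 and 6.09 CPM in W and 6.72, 8.22 and 10.4 CPM in BC, again without overlap. Its log2 difference was 0.65 with a standard error of 0.12. That call was the least stable of the 11, since it held in only 8 of 25 alternative fits. It was lost in limma, with the replicate block and without any 1 of the W libraries of 0, 4, 8 and 48 h, the BC libraries of 8 and 24 h, replicate 1 of W at 24 h, replicate 2 of BC at 4 h and replicate 1 of BC at 48 h.

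Glyma13g33040.1 and Glyma13g33050.1 follow each other with no member between them, and both were lower in BC. For Glyma13g33040.1 the W replicates stood at 4.92 and 5.58 (0 h), 4.902 and 4.11 (4 h), 5.71 and 4.78 (8 h), 7.65 and 4.09 (24 h) and finally 6.85 and 4.26 (48 h), all in CPM. The BC replicates were at 2.18 and 2.29 (0 h), 1.405 and 1.14 (4 h), 1.26 and 1.47 (8 h), 1.49 and 2.12 (24 h) and finally 3.75 and 2.15 (48 h), all in CPM. Its lines did not overlap, and the averaged log2 difference was -1.51 with a standard error of 0.16. Glyma13g33050.1 had a lowest, median and highest level of 0.837, 1.49 and 2.33 CPM in W and 0.505, 0.597 and 1.11 CPM in BC. Here the ranges overlapped, through the W libraries at 4 h and replicate 1 of W at 8 h on one side and replicate 1 of BC at 24 h on the other. The log2 difference was -1.22 with a standard error of 0.19. The members on either side, Glyma13g33030.1 and Glyma13g33070.1, were not called, with log2 differences of -0.29 and 0.47 and standard errors of 0.31 and 0.17. Glyma13g33070.1 was thus on average higher in BC, next to a pair that was lower. Whether reads were shared between similar neighbouring models cannot be told from the table.

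Glyma13g33160.1 had few reads, 123 in BC and 8 in W. The ratio per scaled library size was 17.2, with an exact 95% counting interval of 8.46 to 40.7. Lowest, median and highest levels were 0, 0.01395 and 0.139 CPM in W and 0.103, 0.664 and 2.86 CPM in BC, and the ranges overlapped. In W at 24 h it had no read, so a fitted log2 value depends on the fit's settings and is not given. Its highest level, 2.86 CPM, was in the library that stands apart, but it was still called without that library. The call was lost without either W library of 0 h, replicate 1 of W at 4 h, replicate 2 of W at 8 h, replicate 1 of W at 48 h, replicate 1 of BC at 4 h, replicate 2 of BC at 8 h or replicate 1 of BC at 48 h. It too reached 10 reads only in BC libraries, so it could enter the members only by being high there. In all 4 members reached 10 reads only in BC libraries, and 1 only in W libraries.

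Farther along, Glyma13g34900.1 stood alone among uncalled members. W replicates 1 and 2 were at 32.01 and 26.9 (0 h), 23.8 and 34.8 (4 h), 26.8 and 29.8 (8 h), 21.2 and 20.9 (24 h) and finally 21.3 and 22.6 (48 h), all in CPM. BC replicates were at 14.97 and 10 (0 h), 14.3 and 13.5 (4 h), 14.4 and 12.3 (8 h), 12.7 and 15.4 (24 h) and finally 13.1 and 12 (48 h), all in CPM. The W level was lower at 24 and 48 h than before, and the lines did not overlap. The averaged log2 difference was -0.95 (standard error 0.10, 95% interval -1.16 to -0.74).

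Glyma13g35770.1 was the only call in the eighth window of 500 locus numbers. Its pairs in W were 8.42 and 9.52 (0 h), 6.93 and 8.403 (4 h), 5.49 and 6.44 (8 h), 8.68 and 8.09 (24 h) and finally 4.73 and 8.01 (48 h), all in CPM. Those in BC were 12.9 and 12.4 (0 h), 9.89 and 14.6 (4 h), 11.5 and 14.3 (8 h), 15.6 and 14.5 (24 h) and finally 13.6 and 15.3 (48 h), all in CPM. All BC values were above all W values, and the log2 difference was 0.86 with a standard error of 0.11.

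At the far end, 4 consecutive tested members from Glyma13g36360.1 to Glyma13g36390.1 all had higher averages in BC, and 2 of them were called. In replicates 1 and 2 of W, Glyma13g36360.1 stood at 2.11 and 1.34 (0 h), 3.05 and 1.74 (4 h), 1.98 and 2.21 (8 h), 2.49 and 1.17 (24 h) and finally 1.63 and 2.197 (48 h), all in CPM. In BC it stood at 5.38 and 7.29 (0 h), 3.97 and 6.82 (4 h), 4.92 and 4.23 (8 h), 3.16 and 5.43 (24 h) and finally 7.34 and 7.199 (48 h), all in CPM. Its lines did not overlap, and the log2 difference was 1.47 with a standard error of 0.19. The W pairs of Glyma13g36370.1 were 3.07 and 2.15 (0 h), 3.84 and 2.89 (4 h), 5.27 and 4.42 (8 h), 3.89 and 2.24 (24 h) and finally 1.71 and 1.55 (48 h), all in CPM. Its BC pairs were 6.69 and 5.14 (0 h), 3.48 and 5.37 (4 h), 5.05 and 5.43 (8 h), 4.48 and 8.51 (24 h) and finally 5.23 and 9.73 (48 h), all in CPM. Replicates of the lines overlapped at 4 and 8 h. The log2 difference was smallest at 8 h, at 0.12 (standard error 0.39), and largest at 48 h, at 2.17 (standard error 0.44). Averaged, it was 0.99 with a standard error of 0.18, and the call was lost in limma, with the replicate block and without any 1 of the W libraries of 0, 4 and 48 h, the BC libraries of 8 h, replicate 2 of W at 8 h, replicate 2 of W at 24 h, replicate 2 of BC at 0 h, replicate 2 of BC at 4 h, replicate 2 of BC at 24 h and replicate 2 of BC at 48 h.

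The next 2 members were not called. Glyma13g36380.1 was at 1.09 ± 0.532 CPM in BC against 0.552 ± 0.198 CPM in W (SD, n = 10), with a log2 difference of 0.99 and a standard error of 0.31. Glyma13g36390.1 was at 6.41 ± 2.23 CPM in BC against 4.01 ± 5.53 CPM in W (SD, n = 10), with a log2 difference of 1.24 and a standard error of 0.25. At 4 h its W replicates were at 7.42 and 18.8 CPM, and all other W libraries were at or below 2.48 CPM. The member just before this run, Glyma13g36340.1, had a log2 difference of 0.08 and a 95% interval of -0.11 to 0.26.

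**Figure D2:**
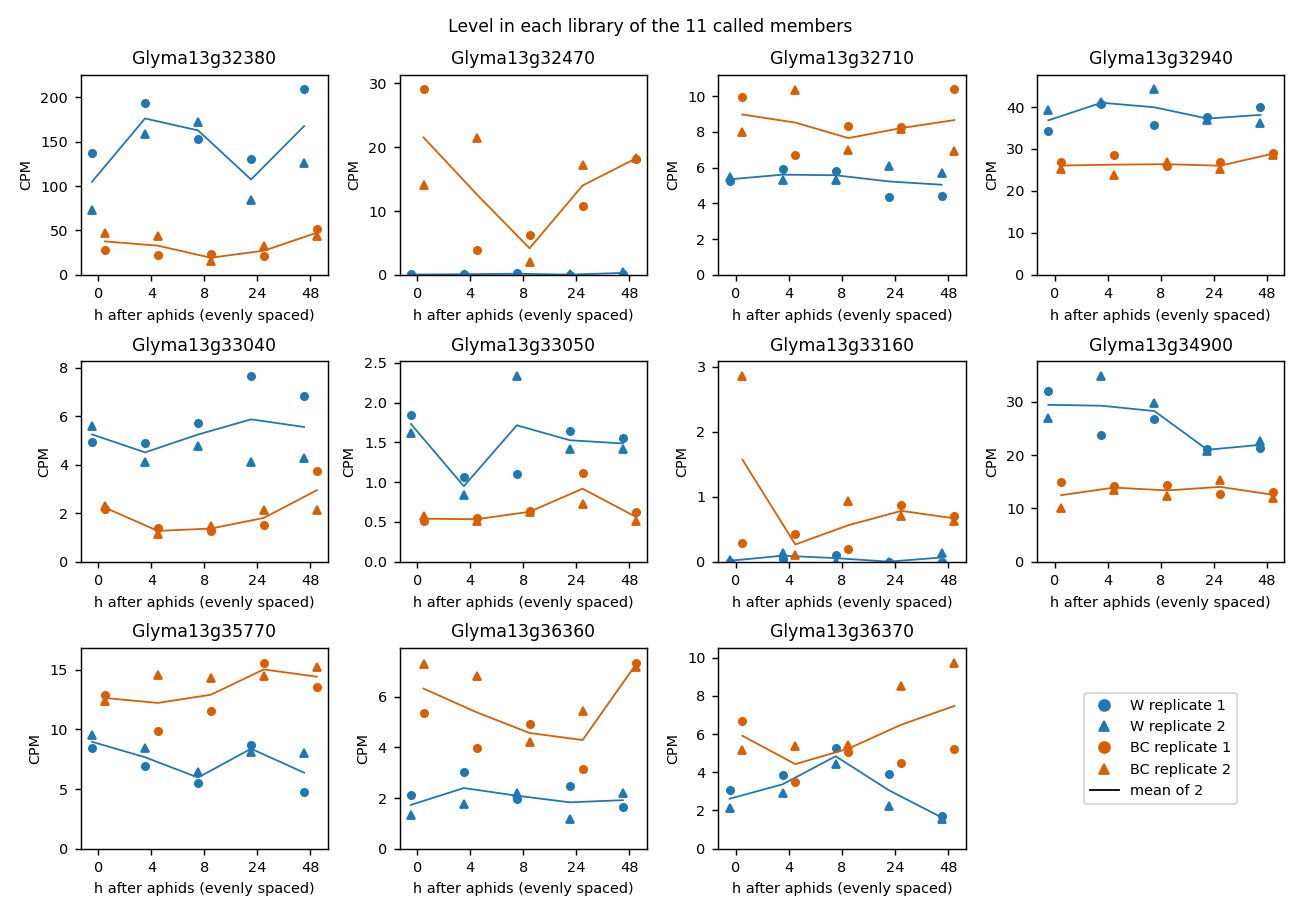
CPM (counts per unit of TMM-scaled library size; each panel has its own axis from 0) of the 11 called members against hours of infestation, spaced evenly. Circles and triangles are replicates 1 and 2, and lines join the means. The lines are apart in all libraries for 8 members and overlap for Glyma13g33050.1, Glyma13g33160.1 and Glyma13g36370.1.

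In 8 of the 11 called members all 10 BC libraries lay on one side of all 10 W libraries. It held for no uncalled member, so the share was 2.56% of the 312 tested members, against 0.113% of all tested models. All 11 kept the sign of their averaged difference at each of the 5 times. Among the 312 tested members 35 did so, or 11.2%, against 5.82% of all tested models. A call on the averaged difference itself favours separate lines and a constant sign. The stretch was also drawn on that comparison, so nothing is read from these shares. The called differences ran from 0.532 to 7.14 in absolute log2, with a median of 1.22. The calls of Glyma13g32380.1, Glyma13g32470.1, Glyma13g32940.1, Glyma13g33040.1, Glyma13g34900.1, Glyma13g35770.1 and Glyma13g36360.1 held in all 25 alternative fits. Glyma13g33050.1 was lost in 1 of them, Glyma13g33160.1 in 8, Glyma13g36370.1 in 16 and Glyma13g32710.1 in 17. Without replicate 2 of the BC 0 h group only Glyma13g36370.1 among these was lost, and when replicate 1 of that group was dropped instead, so that the deviating library stood alone in it, 21 of 319 tested members were called (6.58%). The same fit called 1.29% of all tested models, so counts rose over the whole table.

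For most members the lines were close. The 95% interval of the averaged difference lay within 2-fold in either direction for 265 of the 312 tested members, or 84.9%, of which 263 were uncalled. Over all tested models the share was 85.8%. With a bound of 1.5-fold the number was 177 of 312. For all tested models with the same read minimum it was 24280 of 38873, a larger share. Another 34 uncalled members had an interval that reached 2-fold, and 4 had a line-time group without reads and so no interval, so a difference of that size is not bounded for them. The median absolute log2 difference was 0.174 in the members and 0.134 over all models. Averages were above 0 in 184 members, or 59.0%, against 51.9% of all models with the same read minimum. An averaged difference over 2-fold was seen in 17 members, 5.45%, against 2.79% of all tested models, and 11 of the 17 were not called.

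Of the 8 members with the highest mean CPM none was called, and for 7 the interval lay within 2-fold. Gene lengths are not at hand, so these levels are not comparable between models. Glyma13g35800.1 had a lowest, median and highest level of 765, 1184 and 3403 CPM in W and 179, 1502 and 2204 CPM in BC, and a log2 difference of -0.41 with an interval of -1.01 to 0.18, which just reaches 2-fold. For Glyma13g34290.1 the levels were 552, 931 and 1886 CPM in W and 360.1, 808 and 1689.9 CPM in BC, with an interval of -0.86 to 0.29. In both the ranges of the lines overlapped widely, and both varied several-fold within each line. Glyma13g34370.1 was steadier, with BC at 154 ± 14.8 CPM and W at 169 ± 14.3 CPM (SD, n = 10), with an interval of -0.33 to 0.05. Glyma13g32920.1 had an interval of -0.28 to 0.30, Glyma13g34720.1 of -0.24 to 0.32 and Glyma13g35510.1 of -0.09 to 0.41. The intervals of Glyma13g36190.1, -0.34 to 0.51, and of Glyma13g36150.1, -0.76 to 0.04, were wider and stayed within 2-fold.

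The 5 uncalled members with the largest averaged differences were weakly or unevenly expressed. Glyma13g33290.1 had a lowest, median and highest level of 0.1098, 0.528 and 2.902 CPM in W and 0.727, 1.82 and 17.4 CPM in BC, with the highest in replicate 2 of BC at 8 h, and its log2 difference was 2.30 with a standard error of 0.49. Glyma13g32310.1 stood at 2.14 and 1.03 CPM in BC at 4 h and 2.78 and 1.96 CPM at 8 h, and in no other library above 0.442 CPM, a log2 difference of 1.76 with a standard error of 0.43. Glyma13g32250.1 had 87 reads in BC and 17 in W, but 58 of the BC reads were in replicate 2 at 8 h and 13 of the W reads in replicate 2 at 24 h. Glyma13g35560.1 had 390 reads in BC, 230 of them in replicate 2 at 8 h, and 190 in W, 156 of them in replicate 2 at 24 h. These last 2 models were thus high in the same pair of libraries. Glyma13g33110.1 had 43 reads in W and 12 in BC. The last 3 each had a line-time group without reads, so no fold is given.

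By window of 500 locus numbers, calls were in the first 3 windows (2, 2 and 3), in the sixth and the eighth (1 each) and in the ninth (2). The fourth, the fifth and the seventh windows held 0 calls among 30, 33 and 39 tested members, of which 28, 28 and 37 had intervals within 2-fold. The median absolute log2 difference ran from 0.131 in the second window to 0.204 in the fifth. The third window had the lowest share of members bounded within 2-fold, 65.8%, and the highest median standard error, 0.197. The second had the highest share, 97.1%.

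**Figure D3:**
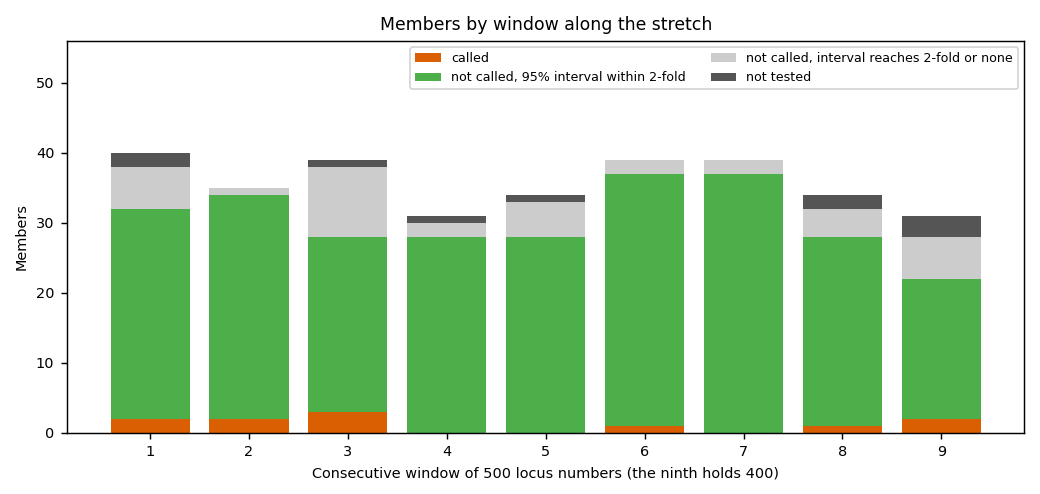
Members (vertical axis, count) in 9 consecutive windows along the stretch (horizontal axis), divided into called, uncalled with a 95% interval within 2-fold, other uncalled, and not tested. Green, the uncalled members bounded within 2-fold, makes up most of each bar, and orange, the called members, is absent from the fourth, the fifth and the seventh.

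On the rest of chromosome 13, outside the span from Glyma13g24470.1 to Glyma13g36400.1, 1 of 1855 tested models of the same read minimum was called and the median absolute log2 difference was 0.14. From Glyma13g28010.1 to Glyma13g32000.1, 7 of 293 were called with a median of 0.171, and from Glyma13g24470.1 to Glyma13g28000.1, 21 of 230 with a median of 0.197. These neighbouring stretches were drawn on the same comparison, and the differences between them were not tested.

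At single times, with 2 libraries per line, few members passed. At 0, 4 and 24 h the 1 call among the 312 was Glyma13g32470.1, with log2 differences of 9.10, 7.19 and 8.70 and standard errors of 1.15, 1.06 and 1.25. W held 16 reads of this model over its 10 libraries, so the sizes of these differences rest on few W reads. At 8 h the 1 call was Glyma13g32380.1, at -3.08. At 48 h the count was 0 in edgeR, against 5 in DESeq2 and 2 in limma. In edgeR 33 members, or 10.6%, were at an unadjusted p below 0.05 at 48 h, against 8.82% of all tested models. Over all tested models 0.018%, 0.0308%, 0.0257%, 0.0308% and 0.0154% were called at 0, 4, 8, 24 and 48 h. These calls rest on few libraries. The 0 h call was lost without either W library of 0 h, and without replicate 1 of BC at 0 h 74 of 319 tested members were called (23.2%), against 19.3% of all tested models in that fit. The 4 h call was lost without either W library of 4, 8 or 24 h, either BC library of 0, 24 or 48 h, or replicate 2 of BC at 4 h. The 8 h call was lost without either W library of 8 h, either BC library of 8 h or either BC library of 48 h. The 24 h call was lost without either W library of 4, 8 or 24 h or either BC library of 0, 24 or 48 h. Without replicate 1 of BC at 8 h the 1 member called at 8 h was Glyma13g33290.1, higher in BC. At 48 h Glyma13g32470.1 was called without either BC library of 4 h. No alternative fit reversed the averaged difference of any of the 11.

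**Figure D4:**
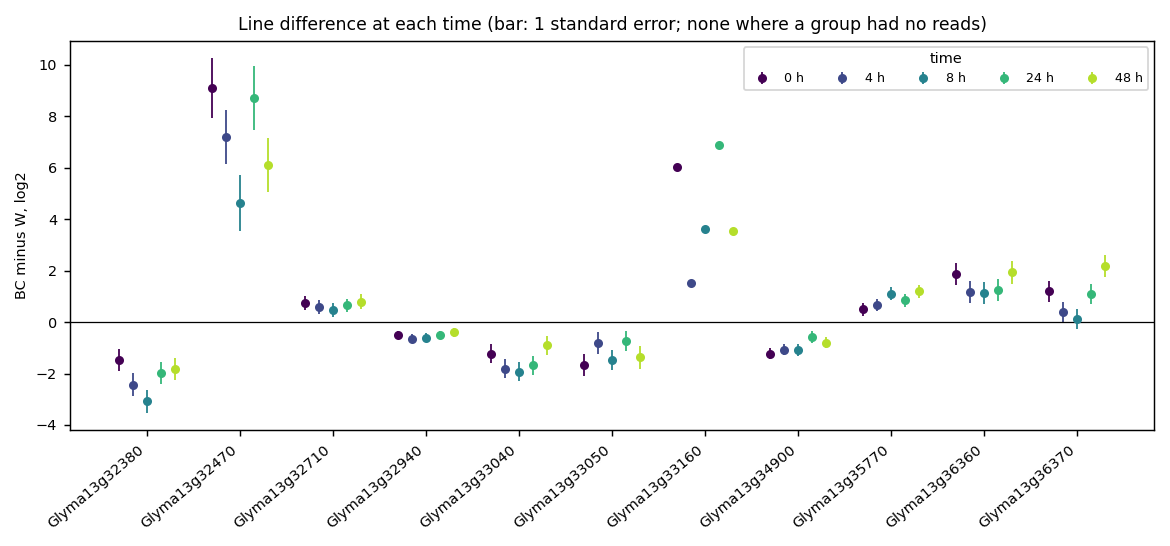
Log2 difference between the lines (vertical axis, BC minus W) at each of the 5 times for the 11 called members, with 1 standard error. All points of a member lie on 1 side of 0, and Glyma13g36370.1 comes nearest to 0 at 8 h. Points of Glyma13g33160.1 have no bar, and their height depends on the settings of the fit.

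Whether the line difference of a member varied with time was tested with the line by time interaction, which the choice of members did not use. In edgeR 0 of 312 members and 0% of all tested models were called. At an unadjusted p below 0.05 were 24 members, or 7.69%, against 8.02% of all tested models. limma with library weights called 0 (8 unadjusted), and DESeq2 called 2, Glyma13g33150.1 and Glyma13g36120.1. Among the 11 called members the smallest unadjusted p was 0.0275, for Glyma13g36370.1, with an edgeR adjusted p of 0.597. When replicate 1 of BC at 0 h was dropped, so that the library that stands apart was the only BC library of that time, 20 of 319 tested members were called (6.27%), against 4.47% of all tested models.

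The change from 0 h with the lines averaged is likewise independent of the choice. At 4 h 9 of 312 members were called in edgeR, 7 higher and 2 lower, against 1.64% of all tested models, 1.06% higher and 0.583% lower. At 8 h 16 were called, 6 higher and 10 lower, against 3.93%, 1.87% and 2.05%. At 24 h edgeR called 0, against 0% of all models, with 32 members at an unadjusted p below 0.05 (10.3%, against 8.99% of all models). DESeq2 called 2 there and limma 0. At 48 h edgeR called 1, against 0.0257%. In all 20 members were called at a time or more, 5 of them at both 4 and 8 h. The matching shares over all tested models were not counted, so nothing is read from these numbers. None of the 11 members called between the lines was among the 20. With lists of 11 and 20 among 312, that is not read as a result. The 4 comparisons share the 0 h libraries. The median absolute log2 change of the members was 0.266 at 4 h and 0.268 at 8 h, and that of all models 0.246 and 0.262.

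Glyma13g35410.1 rose at both early times. Its W pairs stood at 1.88 and 1.59 (0 h), 11.8 and 8.23 (4 h), 12.4 and 10.1 (8 h), 2.43 and 1.51 (24 h) and finally 5.14 and 3.75 (48 h), all in CPM. Its BC pairs stood at 3.13 and 1.71 (0 h), 3.36 and 7.54 (4 h), 9.27 and 11.7 (8 h), 1.77 and 1.99 (24 h) and finally 2.89 and 1.89 (48 h), all in CPM. The 8 h level exceeded the 0 h level in all libraries of either line, and the level at 24 h was close to that of 0 h. The log2 change was 1.82 at 4 h (adjusted p = 0.00439 in edgeR, standard error 0.29), a call lost in limma (adjusted p = 0.132). The 8 h change was 2.38 (adjusted p = 1.95e-04 in edgeR, standard error 0.29).

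Glyma13g33990.1 rose most at 4 h. W stood at 2.998 and 2.65 (0 h), 6.58 and 9.69 (4 h), 5.38 and 6.56 (8 h), 2.73 and 2.39 (24 h) and finally 2.61 and 3.49 (48 h), all in CPM, and BC at 2.33 and 2.29 (0 h), 11.8 and 6.303 (4 h), 4.86 and 4.58 (8 h), 2.61 and 2.81 (24 h) and finally 2.11 and 3.03 (48 h), all in CPM. It changed by 1.75 in log2 at 4 h (adjusted p = 0.00136 in edgeR, standard error 0.23), a call lost in limma (adjusted p = 0.0707). Its 8 h change was 1.06 (adjusted p = 0.0157 in edgeR, standard error 0.23), a call lost in limma (adjusted p = 0.262) and without replicate 2 of W at 0 or 8 h. Glyma13g33970.1, 2 members earlier in order, rose at 8 h, from pairs of 25.6 and 24.5 CPM in W and 26.3 and 20.1 CPM in BC to 42.8 and 57.2 CPM and 70.03 and 43.6 CPM. The log2 change was 1.14 (standard error 0.19, edgeR adjusted p = 0.00219). Glyma13g32310.1 was called higher at 4 and 8 h (log2 changes 2.61 and 2.63, edgeR adjusted p = 0.02795 and 0.0237). It had 2 reads in the BC 0 h group, and its mean CPM over the 5 times in order was 0.141, 0.343, 0.232, 0.0791 and 0.0646 for W and 0.0727, 1.59, 2.37, 0.298 and 0.219 for BC. The 4 h call was lost without either W library of 0 h, replicate 1 of W at 4 h, replicate 2 of BC at 0 h or replicate 1 of BC at 4 h. The 8 h call was lost without any W library of 0 or 8 h, replicate 2 of BC at 0 h or replicate 1 of BC at 8 h. Both calls were lost in limma (adjusted p = 0.449 and 0.256). Without replicate 1 of BC at 0 h, which held both reads of that group, the fitted log2 changes were 4.56 and 4.58, values that depend on the settings of the fit.

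Among the falls, Glyma13g33420.1 had the largest at 8 h. W was at 18.6 and 24.6 (0 h), 25.5 and 2.89 (4 h), 3.84 and 2.76 (8 h), 44.7 and 29.8 (24 h) and finally 79.3 and 61.4 (48 h), all in CPM, and BC at 54.7 and 38.9 (0 h), 2.69 and 18.2 (4 h), 3.03 and 1.25 (8 h), 44.9 and 26.3 (24 h) and finally 41.1 and 36.8 (48 h), all in CPM. The means of both lines were lowest at 8 h, and the replicates at 4 h were far apart in both. All W values at 24 and 48 h were above those of 0 h. The log2 change at 8 h was -3.61 (standard error 0.66, edgeR adjusted p = 0.00703), and the call was lost in limma (adjusted p = 0.0622) and without replicate 2 of W at 8 h. Glyma13g32430.1 also dipped at 8 h, from means of 35.9 ± 9.95 CPM in W and 23.2 ± 12.4 CPM in BC to 5.85 ± 0.663 and 10.3 ± 1.19 CPM (SD, n = 2; log2 change -1.90, edgeR adjusted p = 8.40e-04). Glyma13g35470.1 fell at 4 h, from pairs of 25.8 and 20.3 CPM in W and 23.1 and 25.7 CPM in BC to 13.1 and 14.2 CPM and 14.5 and 13.2 CPM (log2 change -0.78, standard error 0.14, edgeR adjusted p = 0.01204), a call lost in limma (adjusted p = 0.155) and without replicate 1 of W at 4 h.

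Glyma13g35950.1 was the member called lower at 4, 8 and 48 h. W stood at 31.3 and 36.9 (0 h), 2.47 and 3.45 (4 h), 4.94 and 3.005 (8 h), 8.32 and 4.24 (24 h) and finally 3.26 and 2.84 (48 h), all in CPM, and BC at 10.03 and 15 (0 h), 10.4 and 3.1 (4 h), 5.36 and 5.74 (8 h), 6.43 and 7.29 (24 h) and finally 6.01 and 2.53 (48 h), all in CPM. The 0 h level of W was the highest, above that of BC at 0 h, and all later levels of both lines lay between 2.47 and 10.4 CPM. The log2 changes were -2.18, -2.14 and -2.49 (edgeR adjusted p = 0.00515, 0.002502 and 0.0383). Leaving out replicate 1 of BC at 0 h raised the counts of called members to 51, 56, 29 and 47 of 319 tested at 4, 8, 24 and 48 h, and the shares of all tested models called to 13.1%, 13.8%, 6.98% and 11.2%. The 4 h count fell most without replicate 2 of W at 0 h or replicate 1 of BC at 4 h. The 8 h count fell most without replicate 2 of W at 0 h, either W library of 8 h or replicate 1 of BC at 8 h. In each of these fits the share of all tested models called was lower too, so the fall was not confined to the members. The 24 h count was 1 without replicate 1 of W at 24 h. The 48 h call was lost in limma (adjusted p = 0.194), with the replicate block and without either W library of 0, 4 or 48 h, replicate 2 of BC at 0 h, or either BC library of 8, 24 or 48 h.

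**Figure D5:**
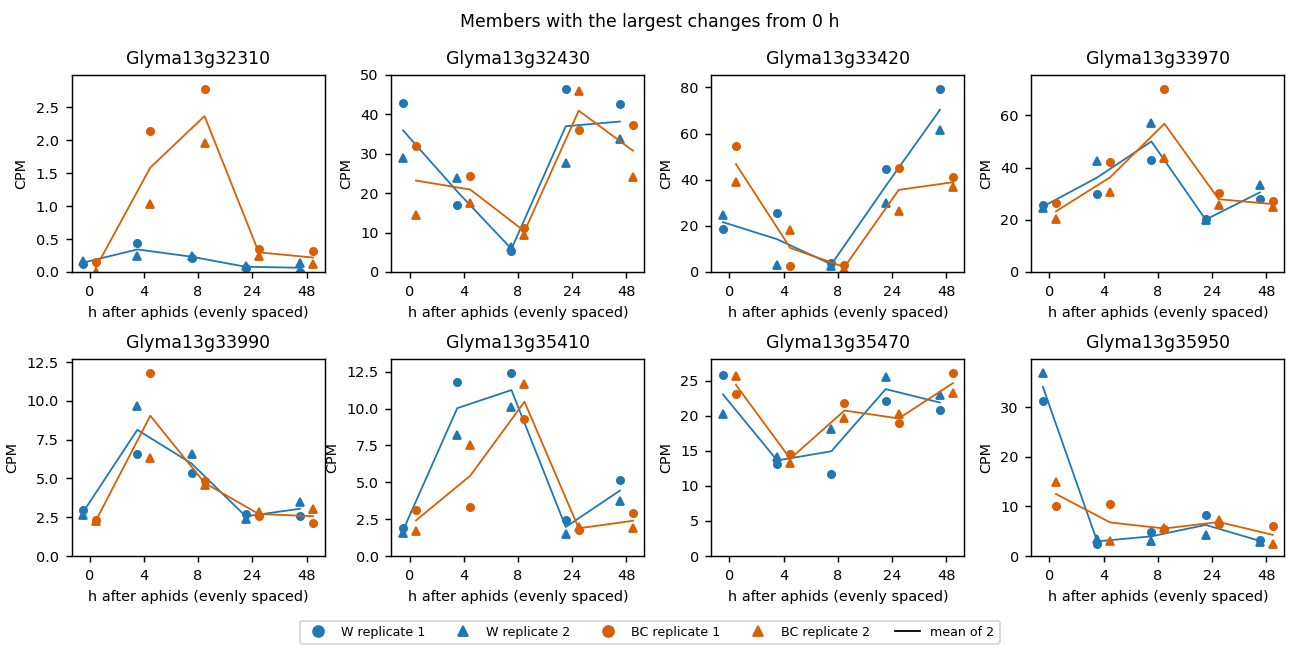
CPM (each panel has its own axis from 0) against hours of infestation, spaced evenly, for the 8 members that were among the 3 largest called changes from 0 h in a direction at 4, 8 or 48 h. Circles and triangles are replicates 1 and 2, and lines join the means. Of these, Glyma13g32310.1 rose in BC far above its level in W, while the lines followed each other in Glyma13g33990.1. In Glyma13g32430.1 both line means were lower at 8 h than at 0 h, with W above BC at 0 h and below it at 8 h.

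The 10 members that were not tested had 53 to 130 reads over the 20 libraries. Glyma13g34260.1 had the fewest reads of all members, 50 in BC and 3 in W, a ratio of 18.6 with an exact 95% counting interval of 6.03 to 93.5, and it had no read in several groups. It reached 10 reads only in BC libraries, so it too could enter the members only by being high there. Among all members, tested or not, Glyma13g33110.1, Glyma13g35650.1 and Glyma13g36180.1 followed with 55, 69 and 71 reads in all. Of these, Glyma13g33110.1 was tested. Just outside the read minimum, the models with the most reads were Glyma13g35070.1, Glyma13g33820.1, Glyma13g36200.1 and Glyma13g33510.1, with 79, 77, 70 and 65. Of the 112 models left out, 46 had no read.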

How the data were processed

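The values are raw counts, deposited as a single table with a row for each gene model and a column for each library, without normalization. The submitters' processing notes name Cuffdiff 1.3.0, edgeR, HTSeq 0.5.3 and TopHat 1.4.1. Build, annotation release and strand setting are not given in the sources used here, so overlapping and antisense models cannot be separated. Library sizes and tests exclude 5 summary rows without a gene, which held 2.79% to 7.46% (no feature) and 1.43% to 1.86% (ambiguous) of reads.

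Line, hour and replicate were read from the column names. The labels group the samples by genotype and time, but the codes W and BC match no label, so the 10 groups tested are line code by time. With filterByExpr, TMM scaling and the robust quasi-likelihood test of edgeR 4.0.16 (R 4.3.3), 1 model was fitted to all 20 libraries, with 10 residual degrees of freedom. It kept 38918 models, over which p-values were adjusted (Benjamini-Hochberg, threshold 0.05, two-sided). Standard errors came from the fold change and F statistic, and intervals used the degrees of freedom of the test. They are not given where a line-time group had no read. CPM used TMM-scaled library sizes. Alternatives were DESeq2 1.42.0, RLE scaling, no filter, limma 3.58.1 voom with library weights, a replicate block, leaving out each library and single-time fits.

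The members and comparisons were chosen with earlier results of these data known. Named were the members called between the lines, the 5 largest uncalled differences, the 8 with the highest mean CPM, the 3 largest changes in each direction among those called against 0 h at each time, and 4 models on either side of the read minimum. Neighbours of called models, members at the run of higher averages at the far end and models called only by DESeq2 were named after their values were seen. In the RefSeq table of Glycine_max_v4.0, 0 model names were found, so no names, functions, sequences or coordinates are given, and the planned tissue markers were not used.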

Additional observations from a re-analysis of the deposited data

How the results depend on the processing

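Averaged over times, the count of members called between the lines was 11 with RLE scaling and without the low-count filter, 15 with DESeq2 (4.81%, against 0.699% of all models), 8 with limma and 9 with the replicate block, and 8 to 21 with a library left out. The shares of all models called were 0.213% with RLE scaling, 0.184% without the filter, 0.149% with limma and 0.19% with the replicate block. No alternative reversed a called member. DESeq2 added Glyma13g36390.1, Glyma13g34560.1, Glyma13g33290.1 and Glyma13g32390.1. Single-time and time counts moved more. DESeq2 called 5, 3, 9, 3 and 5 members between the lines at 0, 4, 8, 24 and 48 h, 18, 31, 2 and 6 against 0 h at 4, 8, 24 and 48 h, and 2 for the interaction. Over all models DESeq2 called 0.588%, 0.0668%, 0.375%, 0.0591% and 0.222%, then 4.09%, 6.55%, 0.343% and 0.352%, and 0.373%. limma called 0, 0, 0 and 2 between the lines at 0, 4, 24 and 48 h (22, 21, 28 and 60 at an unadjusted p below 0.05) and 1, 6 and 0 against 0 h at 4, 8 and 48 h (32, 40 and 33 unadjusted). Of all models limma called 0.00257%, 0.0231%, 0.0385% and 0.18%, then 0.265%, 1.5% and 0%. Without the filter edgeR called 0 between the lines at 0 and 24 h (60 and 16 unadjusted), and at 4 h its 1 call was Glyma13g32380.1, lower in BC, in place of Glyma13g32470.1. That fit called 0.0335%, 0.0242% and 0.0279% of all models at 0, 4 and 24 h. In edgeR fits of only the 4 libraries of a time the counts were 0, 0, 0, 0 and 2 (25, 20, 60, 33 and 52 unadjusted). Among all models these fits called 0, 0, 0, 0 and 55. With a library left out, counts ranged from 0 to 74 between the lines at 0 h, from 0 to 1 at each later time, from 5 to 51, 7 to 56, 0 to 29 and 0 to 47 against 0 h at 4, 8, 24 and 48 h, and from 0 to 20 for the interaction. The highest count of each of these, 0 to 1 aside, came without replicate 1 of BC at 0 h, where 19.3%, 13.1%, 13.8%, 6.98%, 11.2% and 4.47% of all models were called. The cause was not tested. The deviation of rep 1 from rep 2 correlated between the lines at -0.0475, -0.394, -0.0669, -0.469 and 0.266 at the 5 times. Whether libraries with the same replicate number share a batch was not tested. With the replicate block edgeR called 0 between the lines at 4, 8 and 24 h and 0 against 0 h at 48 h (25, 61, 19 and 47 unadjusted). The block fit called 0.0206%, 0.0128%, 0.0283% and 0.0103% of all models in these comparisons. Members numbered 312 with at least 10 reads in 4 libraries and 388 with 1 read in 1 library. Depth limits the untested members and those with few reads.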

Other observations

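Several members that lie close together had their peak in the library that stands apart, replicate 2 of BC at 0 h. That library held the peak of 23.6% of all members and of 21.9% of all tested models. Glyma13g33100.1 was at 181 CPM there and at 24.9 CPM in replicate 1. Glyma13g33130.1 was at 89.3 and 21.9 CPM in replicates 2 and 1, Glyma13g33140.1 at 3.29 and 0.727 CPM, and Glyma13g33150.1 at 174 and 38.9 CPM. The called member next to them, Glyma13g33160.1, was at 2.86 and 0.291 CPM. These members were picked after their values were seen, and they are not an unbroken run. Glyma13g33110.1, a member between Glyma13g33100.1 and Glyma13g33130.1, is not among them and had more reads in W than in BC.

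Glyma13g36120.1, picked the same way, was at 14.9 and 30.7 CPM in replicates 1 and 2 of W at 0 h and between 1.72 and 6.597 CPM in the other 18 libraries. Its interaction of line and time had an edgeR adjusted p of 0.597 and a DESeq2 adjusted p of 0.0485. Glyma13g35950.1 had its highest levels in the same pair of libraries.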
